A study of Mus musculus with 6 samples.

Results

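The genes described here are the 3 MEF2 transcription factor genes Mef2a, Mef2c and Mef2d, the gene of the MEF2 coactivator Mamstr, and the 4 class IIa histone deacetylase genes Hdac4, Hdac5, Hdac7 and Hdac9. They were found by their symbols in the deposited expression table, 8 genes of the 55401 it holds, and each symbol stood on 1 row. The genes were selected on this very comparison, with earlier results of the same libraries known. Their changes are therefore given as a description and are not offered as evidence for a role of MEF2 or of the deacetylases.

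The samples were cultures of C2C12 cells, a mouse myoblast line that fuses into multinucleated myotubes when serum is reduced, and all 6 were myotubes in medium with horse serum. In 3 cultures (control siRNA) the cells received GL2 siRNA, the control of the study, and in the other 3 (SENP7 siRNA) they received an siRNA against SENP7, a protease that takes the small modifier SUMO off other proteins. Both groups received 100 pmol of siRNA for 3 days, and the submitters describe the 3 libraries of a group as biological replicates. All cultures come from 1 cell line, and the labels do not say how many siRNA sequences were used. Values are normalized read counts per library, SDs are over 3 libraries, and tests are limma's with p-values adjusted by Benjamini-Hochberg over all tested genes and a threshold of 0.05.

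MEF2 proteins bind an AT-rich element in the control regions of many muscle genes and act there with the MyoD family of myogenic factors. In myoblasts they are held down by class IIa deacetylases, which bind MEF2 directly, have little deacetylase activity of their own and recruit corepressor complexes. Phosphorylation by calcium-dependent and related kinases moves these deacetylases out of the nucleus, and MEF2 is then free to recruit coactivators such as Mamstr, also known as MASTR, a relative of myocardin. MEF2 proteins can carry SUMO at a site that is described as repressive, and none of these protein states is read by RNA counts.

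Libraries held 25223218 to 30865945 reads assigned to genes. Senp7 was lower in each SENP7 siRNA library (275.0, 279.2 and 346.7) than in each control library (556.4, 616.4 and 648.8), a log2 fold change of -1.02 ± 0.11 (SE, limma adjusted p = 0.000427). On the first principal component, with 64.4% of the variance, control replicate 3 lay at -19.13 and the other controls at -36.74 and -33.35, while the SENP7 siRNA libraries lay between 27.68 and 32.53. SENP7 replicates 1 and 2 were the most similar pair, yet they differed by more than counting noise (chi-square per gene 1.74, against 7.3 to 37.87 for other pairs within a group). The summed normalized count of 8 myotube markers was 573300.6 to 592625.3 in the controls and 606512.0 to 698293.6 with SENP7 siRNA, so these markers were higher as a sum in every SENP7 siRNA library. The sum is weighted to abundant genes such as Myh3 (means 179667.7 and 228222.7). Of the 8, Ckm and Mymk rose and the other 6 did not pass the test, beside 10.2% of all tested genes that rose. Among those 6, Myh3 (0.35), Tnnt3 (0.30), Myog (0.28) and Acta1 (0.16) had positive log2 fold changes. Those of Des (-0.20) and Mybph (-0.09) were negative. The groups did not overlap in 5 of the 8, beside 39.6% of all tested genes. With DESeq2 in place of limma, 5 of the 8 rose, so the count depends on the tool. Markers of undifferentiated or cycling myoblasts (7 genes) summed to 7218.3 to 9480.1 in the controls and 6653.9 to 8412.9 with SENP7 siRNA, with Pax7 the sole gene of that list to pass the test (it rose, log2 fold change 0.48, a call lost without control replicate 2, adjusted p = 0.0745). Bone and fat cell markers summed to 127.4 to 171.3 and 123.0 to 142.1, with Ibsp at 0 in all libraries, and the 3 tested genes Alpl (-1.05, adjusted p = 0.0557), Sp7 (-0.95) and Pparg (0.09) did not pass. Blood, vessel and nerve markers summed to 1405.6 to 2047.1 and 735.1 to 1029.2, with Tubb3 the 1 gene of 3 tested to pass the test (it fell, -1.09). In bulk RNA, fewer cells that express a gene and less RNA per cell cannot be told apart, and the part of these marker differences in the results that follow was not tested.

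Promoter sequences of the 2 members with the largest rise and the largest fall are printed first, to show the bases before an annotated start. They come from RefSeq on GRCm38.p6, whose table held all 8 genes, and cover the 250 bases before an annotated start, 5′ to 3′ on the gene's strand. Every window was searched on both strands for the E-box CANNTG, bound by the MyoD family, and for the MEF2 consensus, a longer AT-rich element whose letters cannot contain an E-box. Capitals mark the matches. Among 32851 windows of the same length, 66.22% held CANNTG and 2.92% held the MEF2 consensus. The Mamstr window (chr7:45639727-45639976, plus strand) has no capitals, so neither motif's letters occur in it. The window at the first annotated start of Mef2c (chr13:83503784-83504033, plus strand) holds 2 E-boxes, and another 2 annotated starts of that gene are not shown. Which start these cells used was not measured.
Mamstr: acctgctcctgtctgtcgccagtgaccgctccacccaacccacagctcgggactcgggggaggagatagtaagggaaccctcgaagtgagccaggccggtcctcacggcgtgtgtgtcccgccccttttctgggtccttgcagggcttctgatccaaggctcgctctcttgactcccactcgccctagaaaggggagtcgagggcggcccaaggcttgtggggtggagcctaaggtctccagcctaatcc
Mef2c: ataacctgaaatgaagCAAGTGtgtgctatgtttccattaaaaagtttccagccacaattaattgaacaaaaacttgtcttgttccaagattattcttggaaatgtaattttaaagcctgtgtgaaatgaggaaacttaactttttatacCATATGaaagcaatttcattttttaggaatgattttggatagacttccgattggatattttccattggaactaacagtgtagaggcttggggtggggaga

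The MEF2 consensus itself occurred in the window of 1 of the 8 genes, Hdac5. It also occurred in 4 of the 22 windowed genes of a list of muscle genes described as MEF2-bound (Srpk3, Pgam2, Jun and Xirp2). Of all 27025 genes searched, 3.42% held it. Because the list was chosen for a described MEF2 element, its higher share is no evidence. Genes of the list outside those 22, among them Slc2a4 and Myf6, had no window. The 5 matches are shown because they are the element through which the proteins described here are known to act. Each is given with 10 flanking bases on either side, the match in capitals, 5′ to 3′ on the gene's strand, on GRCm38.p6. They lie at chr11:102230173-102230202 (minus strand, Hdac5), chrX:73774328-73774357 (plus, Srpk3), chr11:5803857-5803886 (minus, Pgam2), chr4:95052236-95052265 (minus, Jun) and chr2:67445918-67445947 (plus, Xirp2). The first base of the match stands 20 bases before the start in Hdac5, 67 in Srpk3, 80 in Pgam2, 33 in Jun and 74 in Xirp2. A match describes letters and is no measure of binding. As most windowed genes of the list had no match, a window without one does not show that a gene lacks a MEF2 element.
Hdac5: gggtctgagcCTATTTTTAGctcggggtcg
Srpk3: agctgggaggCTATTTATAAaggcgagtga
Pgam2: ttttgtgagaCTATTTTTAAgttcagctcc
Jun: acatcatgggCTATTTTTAGggattgactg
Xirp2: agctcagttcCTAAAAATAGgtgctaggtt

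All 8 genes were tested, each passing the filter on low counts (10 or more normalized counts in 3 or more libraries). With SENP7 siRNA 2 rose (Mamstr and Hdac4), 1 fell (Mef2c) and 5 did not pass the test, beside 20.9% of 14668 tested genes that were called (10.2% rose and 10.7% fell). The groups did not overlap in 5 of the 8, beside 39.6% of all tested genes. The median log2 fold change was 0.17 over the 8 genes and 0.00 over all tested genes. Because the genes were chosen on this contrast, nothing is read from these shares. Leaving out control replicate 3 raised the count past the threshold from 3 to 5, by adding Mef2a and Mef2d, and leaving out any other library lowered it to 2, by losing Hdac4. Calls over all tested genes moved likewise, from 3062 to 4657 without control replicate 3 and to between 1504 and 2378 without any 1 other library.

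**Figure D1:**
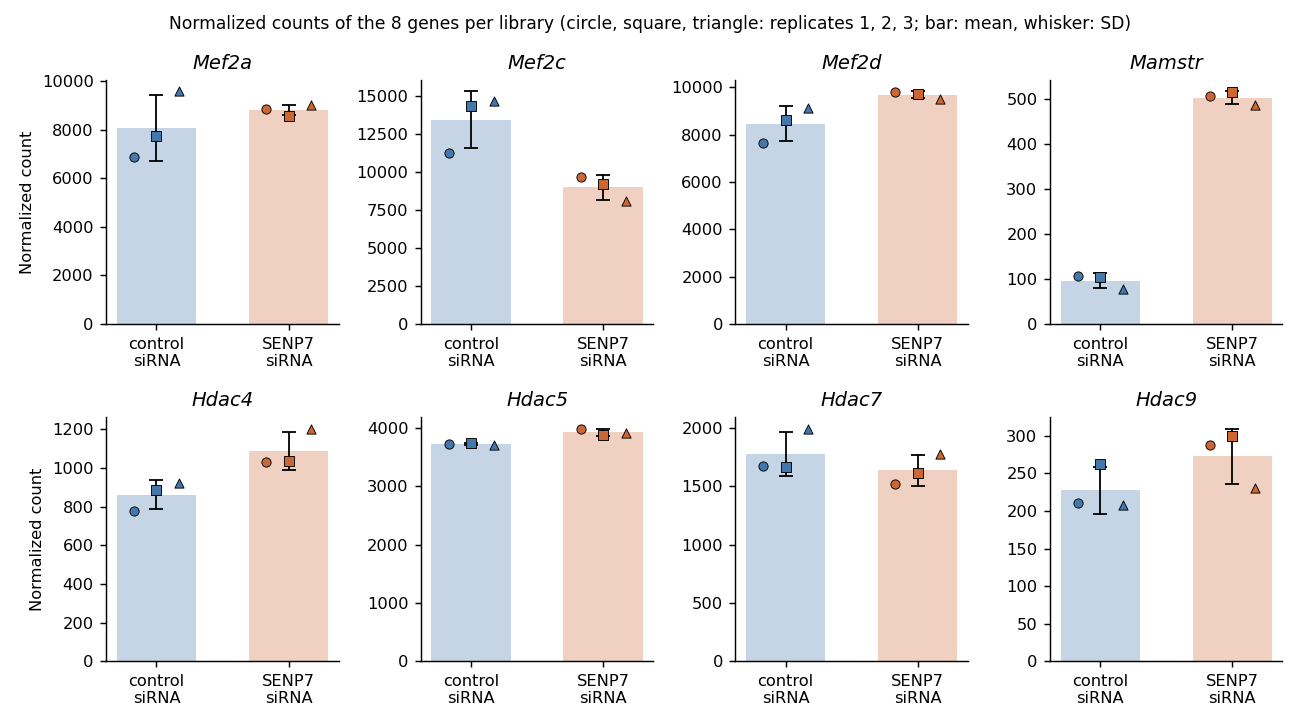
Normalized read counts (y axes, linear, from 0) of the 8 genes in control and SENP7 siRNA libraries; bars are means, whiskers SDs over 3 libraries, and points are libraries, with circle, square and triangle for replicates 1, 2 and 3. Mamstr lies at 77.82 to 107.8 in the controls and 487.9 to 515.6 with SENP7 siRNA, and Mef2c is lower in all SENP7 siRNA libraries.

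Mef2c, the MEF2 gene most tied to skeletal muscle differentiation, lies on chromosome 13 from 83504034 to 83667080, plus strand (ENSMUSG00000005583.16, GRCm38). In replicate order, its normalized counts were 11294.8, 14358.6 and 14711.3 in the controls and 9676.4, 9225.9 and 8097.6 with SENP7 siRNA. Every SENP7 siRNA library was below every control, and control replicate 1 was the lowest control. The group means were 13454.9 ± 1879.0 and 9000.0 ± 813.3 (SD, n = 3 each), and the fitted log2 fold change was -0.57 ± 0.11 (SE; 95% interval -0.83 to -0.32; limma adjusted p = 0.00774). It passed the threshold in all 16 alternative settings, with log2 fold changes from -0.70 to -0.50 and adjusted p up to 0.0488, reached without control replicate 2. It was the 799th largest fitted fall of 14668.

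Mef2d, whose muscle splice form escapes repression by class IIa deacetylases, lies on chromosome 3 from 88142372 to 88172086, plus strand (ENSMUSG00000001419.17). It had normalized counts of 7662.2, 8615.6 and 9118.2 in the controls and 9796.2, 9732.0 and 9513.8 with SENP7 siRNA. The controls were lower and more spread than the SENP7 siRNA libraries, and the groups did not overlap. The log2 fold change was 0.20 ± 0.07 (SE; unadjusted p = 0.0275), which did not pass the limma test across all genes (adjusted p = 0.097). Without control replicate 3 it was 0.25 with an adjusted p of 0.0134 (0.0134 to 0.252 over all settings), and without control replicate 1 it was 0.13. The table counts genes and not splice forms, so the muscle form was not measured. An antisense transcript, 1700113A16Rik, covers 8.87% of the exon length of Mef2d, and with a mean normalized count of 12.07 it was far below it.

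Mef2a, the broadly expressed MEF2 gene, lies on chromosome 7 from 67231163 to 67372858, minus strand (ENSMUSG00000030557.17). In normalized counts it stood at 6888.1, 7731.2 and 9569.6 in the controls and 8850.4, 8570.2 and 8996.6 with SENP7 siRNA. Control replicate 3 was the highest of all 6 libraries and controls 1 and 2 the lowest, so the groups overlapped. The log2 fold change of 0.14 ± 0.11 (SE) did not pass the test (limma adjusted p = 0.401; 95% interval -0.11 to 0.39). Without control replicate 3 it was 0.27 with an adjusted p of 0.00973, and without control replicate 1 it was 0.03 with 0.844, the ends of the range over all settings. Mef2b, the remaining gene of the family, which is chiefly known from lymphocytes, had normalized counts between 4.03 and 7.10 in the 6 libraries and was not tested.

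Levels of different genes were compared as normalized counts per kilobase of exon, over all annotated exons of a gene. These lengths were 5985 bases for Mef2d, 15715 for Mef2c and 14681 for Mef2a, and the lengths of the transcripts expressed here were not measured. The order rests on them, since by count alone Mef2c had the highest control mean (13454.9, against 8465.4 for Mef2d). With SENP7 siRNA these 2 means were 9000.0 and 9680.6. Per kilobase Mef2d was the most abundant MEF2 transcript in both groups, at 1414.4 ± 123.6 in the controls and 1617.5 ± 24.7 with SENP7 siRNA. Mef2c came next in the controls (856.2 ± 119.6) and Mef2a last (549.2 ± 93.4), with no overlap between neighbours in that order. With SENP7 siRNA Mef2a stood at 599.8 ± 14.8 and Mef2c at 572.7 ± 51.8, and these 2 did not differ beyond their spread, since the Mef2c libraries ran from 515.3 to 615.7 and the Mef2a libraries from 583.8 to 612.8. The order below Mef2d was thus no longer resolved.

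The sum of the 3 genes per kilobase was 2468.2, 2879.8 and 3111.5 in the controls and 2855.4, 2796.9 and 2717.7 with SENP7 siRNA, so the groups overlapped (means 2819.8 ± 325.8 and 2790.0 ± 69.1). Within this sum the share of Mef2c was 29.12%, 31.73% and 30.09% in the controls and 21.56%, 20.99% and 18.96% with SENP7 siRNA. The share of Mef2d was 51.87%, 49.99% and 48.96% and then 57.32%, 58.14% and 58.49%. Mef2c thus held a smaller and Mef2d a larger share in every SENP7 siRNA library than in any control. The share of Mef2a went from 19.42% ± 1.38 to 21.51% ± 0.91, with overlap. These shares restate the same counts, rest on the same exon lengths and carry no test. By construction, scaling a library by 1 factor does not alter such shares, and the cause of their shift was not tested.

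**Figure D2:**
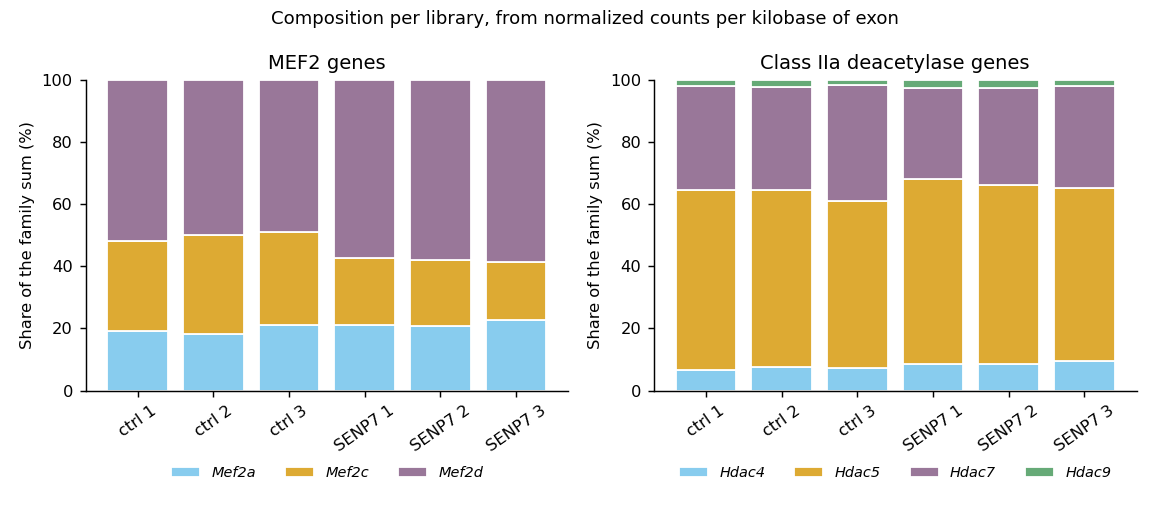
Share of each gene (y axes, %) in the family sum of normalized counts per kilobase of exon, 1 stacked bar per library, for the MEF2 genes on the left and the class IIa deacetylase genes on the right. The Mef2c segment is 29.12% to 31.73% in the controls and 18.96% to 21.56% with SENP7 siRNA, while Hdac5 and Hdac7 hold most of the deacetylase sum in all libraries.

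Mamstr lies on chromosome 7 from 45639977 to 45646521, plus strand (ENSMUSG00000042918.17), and encodes a coactivator that binds MEF2 proteins and is described in differentiating and regenerating muscle. Its normalized counts were 107.8, 103.5 and 77.82 in the controls and 505.7, 515.6 and 487.9 with SENP7 siRNA. The lowest SENP7 siRNA library was far above the highest control. Its mean of 96.38 ± 16.22 in the controls rose 5.22-fold, and stood at 503.1 ± 14.1 with SENP7 siRNA. The fitted log2 fold change was 2.39 ± 0.13 (SE; 95% interval 2.09 to 2.69; limma adjusted p = 1.8e-05). It was the 71st largest rise of 14668 tested genes and passed the threshold in all 16 settings, with log2 fold changes from 2.24 to 2.47. No annotated gene shares exon bases with Mamstr. Per kilobase it stood at 2.37 ± 0.69 for every 100 of Mef2c in the controls and at 18.09 ± 1.29 with SENP7 siRNA. Its transcript was thus the less abundant of the pair in both groups, and with SENP7 siRNA its level per kilobase (103.2 ± 2.9) was still below those of all 3 MEF2 genes.

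The nearest tested genes around Mamstr were looked up by position, after its values were seen. Fut1, a fucosyltransferase gene that ends 18918 bases before Mamstr, had normalized counts of 57.45, 57.85 and 55.44 in the controls and 132.2, 180.8 and 102.31 with SENP7 siRNA. It rose as well (log2 fold change 1.23 ± 0.20 SE, limma adjusted p = 0.00333), and its groups did not overlap. Sec1, another gene of that family on the minus strand, 31165 bases beyond Mamstr, had a log2 fold change of 1.02 ± 0.42 at low counts (6.68 to 34.6) and did not pass the test (adjusted p = 0.125).

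Among 11265 genes with a mean of at least 50, those whose log2 values over the 6 libraries were most like Mamstr were Bag3, a cochaperone of the sarcomeric Z-disc (Pearson r = 0.9996), Cnr1, a cannabinoid receptor (0.9989), and Fos, a subunit of AP-1 (0.9982). Their sizes of change differed, with log2 fold changes of 0.16 for Bag3, which did not pass the test (adjusted p = 0.054), 1.04 for Cnr1 and 0.87 for Fos. Most like Mef2c were Nipal3 (r = 0.9972), Cnot6, a deadenylase subunit (0.9944), and Nr1h5, a nuclear receptor (0.9934), with log2 fold changes of -0.41, -0.34 and -0.45, the last not past the threshold (adjusted p = 0.0771). The call of Cnot6 was lost without control replicate 2 (0.0742), and that of Nipal3 without that library or any 1 SENP7 siRNA library (up to 0.0996). These correlations are over 6 libraries that fall into 2 groups, picked from 11265 genes, and they are a description with no test.

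Hdac4 lies on chromosome 1 from 91928779 to 92195699, minus strand (ENSMUSG00000026313.16), and encodes the class IIa deacetylase that is known to rise in denervated muscle. Its normalized counts were 780.1, 884.5 and 922.1 in the controls and 1029.2, 1035.6 and 1203.1 with SENP7 siRNA. All SENP7 siRNA libraries were above all controls, with SENP7 replicate 3 the highest. Its mean of 862.2 ± 73.6 in the controls rose 1.26-fold and stood at 1089.3 ± 98.6 with SENP7 siRNA. The fitted log2 fold change was 0.34 ± 0.09 (SE; 95% interval 0.14 to 0.54; limma adjusted p = 0.0269). Leaving out control replicate 1 (0.27, adjusted p = 0.0702) or control replicate 2 (0.36, 0.0796) ended the call. So did leaving out any library of the SENP7 siRNA group, with 0.38 (0.0587), 0.37 (0.0625) and 0.26 (0.0884) when replicates 1, 2 and 3 of that group were dropped. Over all settings the adjusted p ranged from 0.0028 to 0.0884. A long noncoding RNA on the opposite strand, Gm26720, covers 22.36% of the exon length of Hdac4 and was not analysed here. As the strand setting of the counting is not known, reads of these 2 genes cannot be told apart.

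Hdac5, which shuttles between nucleus and cytoplasm like Hdac4, lies on chromosome 11 from 102194432 to 102230166, minus strand (ENSMUSG00000008855.17). Its normalized counts were 3734.4, 3740.4 and 3715.8 in the controls and 3988.2, 3879.1 and 3913.3 with SENP7 siRNA. The groups did not overlap, and the SD was 12.8 in the controls, but the log2 fold change of 0.07 ± 0.05 (SE) did not pass the test (limma adjusted p = 0.344; 95% interval -0.04 to 0.19). This is the member whose promoter window holds the MEF2 consensus printed above.

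Hdac7, known best from endothelium and thymocytes, lies on chromosome 15 from 97792664 to 97844502, minus strand (ENSMUSG00000022475.19). It had normalized counts of 1673.2, 1661.0 and 1993.1 in the controls and 1519.0, 1613.3 and 1777.1 with SENP7 siRNA. Control replicate 3 was the highest library, the groups overlapped, and the log2 fold change of -0.12 ± 0.09 did not pass the test (adjusted p = 0.395; 95% interval -0.32 to 0.08). Without control replicate 3 it was -0.030, without SENP7 replicate 1 it was -0.063 and without SENP7 replicate 3 it was -0.18, all short of the threshold.

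Hdac9, whose short form lacking the deacetylase domain is itself a MEF2 target in muscle, lies on chromosome 12 from 34047580 to 34917095, minus strand (ENSMUSG00000004698.11). Normalized counts were 210.7, 262.6 and 208.2 in the controls and 287.5, 299.5 and 231.1 with SENP7 siRNA. SENP7 replicate 3 lay below control replicate 2, so the groups overlapped, and the log2 fold change of 0.26 ± 0.14 did not pass the test (adjusted p = 0.205; 95% interval -0.04 to 0.57). The calls of Hdac5, Hdac7 and Hdac9 stayed on the same side of the threshold in all 16 settings, which does not show that these genes were unchanged. The 2 forms of Hdac9 were not counted apart.

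Per kilobase, Hdac5 was the most abundant of the 4 deacetylase transcripts (424.8 ± 1.5 in the controls and 447.3 ± 6.4 with SENP7 siRNA), then Hdac7 (262.9 ± 27.9 and 242.3 ± 19.3), Hdac4 (54.53 ± 4.65 and 68.89 ± 6.24) and Hdac9 (15.31 ± 2.07 and 18.38 ± 2.46). The order was the same in every library, and no neighbours overlapped within a group. Of the family sum, Hdac5 and Hdac7 together thus held most, and Hdac4 held 7.19% ± 0.43 in the controls and 8.86% ± 0.56 with SENP7 siRNA. The sum itself was 757.6 ± 29.0 and 776.8 ± 20.6, with overlap between the groups. Among all tested genes, mean levels per kilobase stood at percentile 94.2 for Mef2d, 86.7 for Mef2c, 83.0 for Mef2a and 77.9 for Hdac5, and lower for Hdac7 (65.6), Hdac4 (34.0), Mamstr (33.9) and Hdac9 (16.5).

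**Figure D3:**
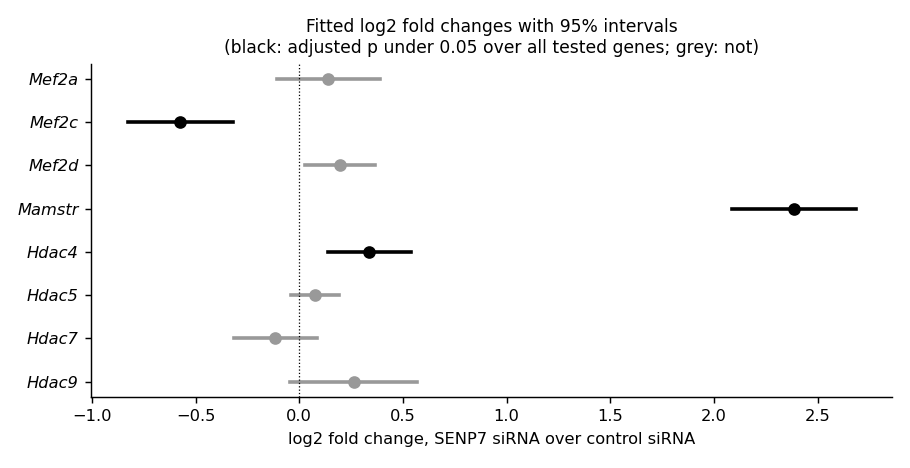
Fitted log2 fold changes of SENP7 siRNA over control siRNA (x axis) for the 8 genes, with unadjusted 95% intervals as lines. Black points passed the adjusted threshold, and among them Mamstr lies at 2.39, Hdac4 at 0.34 and Mef2c at -0.57; Mef2d is grey although its interval of 0.03 to 0.37 leaves out 0, because its adjusted p was 0.097.

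In the authors' deposited table the same 3 members had an adjusted p under 0.05, with log2 fold changes of 2.16 for Mamstr, 0.32 for Hdac4 and -0.55 for Mef2c. These come from the same 6 libraries.

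Around the 8 genes, 7 lists held 79 genes of the same pathway that have a row in the table, of which 75 were tested. They are the remaining MEF2 gene, the myocardin family, the other deacetylases, corepressors, regulators of deacetylase export, enzymes and coactivators acting on MEF2, and SUMO enzymes described for MEF2. With SENP7 siRNA 7 of the 75 rose, 8 fell and 60 did not pass the test, and the groups did not overlap in 25, beside the 10.2%, 10.7% and 39.6% of all tested genes given above. Their median log2 fold change was -0.02. The counts leaned on single libraries, as did those over all genes. Of all tested genes 3062 were called with all libraries, 4657 without control replicate 3 and 1610 without control replicate 2. Without SENP7 replicate 1, 2 or 3 these calls were 1554, 1504 and 2079. Without control replicate 3, 14 rose and 17 fell. The count that fell was 1 without control replicate 2. Dropping replicate 1, 2 or 3 of the SENP7 siRNA group left 2, 1 and 3 that fell. Of the 15 calls, 6 held in all 16 settings (Hdac11, Nrip1, Mapk12, Mapk11, Smarcd3 and Crebbp). The other 9 (Tbl1xr1, Tbl1x, Ctbp1, Ppp2r2a, Prkaa2, Ncoa2, Smarca4, Pias2 and Senp2) were all lost without control replicate 2. Without control replicate 1 the calls of Smarca4, Senp2 and Ctbp1 were lost. All of the 9 but Tbl1x were lost without SENP7 replicate 1 and all but Tbl1xr1 without SENP7 replicate 2. Dropping SENP7 replicate 3 ended the calls of Ncoa2, Smarca4, Pias2, Tbl1x, Ctbp1 and Prkaa2. With all libraries, the calls of Smarca4, Pias2 and Senp2 were also lost with no filter, those of Smarca4 and Ctbp1 with quantile normalization, and that of Senp2 with TMM scaling or DESeq2.

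Of the relatives of Mamstr, the myocardin-related factors Mkl1 (log2 fold change -0.07) and Mkl2 (0.12) and their partner Srf (-0.07) did not pass the test, and Myocd, with at most 4.44 normalized counts in any library, was not tested. Of the 7 other deacetylases 1 rose and 6 did not pass, beside 10.2% of all tested genes that rose. Hdac11, the single class IV enzyme, had normalized counts of 368.9, 397.2 and 415.3 in the controls and 750.6, 715.7 and 702.0 with SENP7 siRNA, with a log2 fold change of 0.88 ± 0.07 (SE, limma adjusted p = 0.000147). All its SENP7 siRNA libraries were far above the controls. The class I genes Hdac1 (-0.16), Hdac2 (0.11), Hdac3 (0.15) and Hdac8 (-0.09) and the class IIb genes Hdac6 (0.08) and Hdac10 (-0.06) did not pass. Hdac3 is the catalytic partner through which class IIa enzymes are known to act.

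Of 11 corepressor partners 2 rose and 2 fell, beside 10.2% and 10.7% of all tested genes. Nrip1, which binds nuclear receptors and deacetylases, had normalized counts of 742.8, 907.8 and 949.4 in the controls and 1257.2, 1134.0 and 1306.3 with SENP7 siRNA (log2 fold change 0.51 ± 0.10 SE, limma adjusted p = 0.0076). The paralogous NCoR complex subunits moved in opposite directions, with Tbl1xr1 higher (0.29 ± 0.06, adjusted p = 0.0124, up to 0.0676 over all settings) and Tbl1x lower (-0.32 ± 0.07, 0.018, up to 0.0708). Ctbp1, a corepressor that MEF2-bound deacetylases recruit, fell by 0.24 on the log2 scale (0.0425, up to 0.149). The groups did not overlap in 5 of the 11, these 4 among them, beside 39.6% of all tested genes. For genes that were called, this adds no evidence.

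A list of 25 tested genes held kinases, carriers and phosphatase subunits that act on the place of class IIa deacetylases in the cell. In it 2 fell and 23 did not pass the limma test, beside 10.7% of all tested genes that fell. Ppp2r2a, a regulatory subunit of PP2A, fell by 0.23 and Prkaa2, the muscle form of the AMP kinase catalytic subunit, fell by 0.36 on the log2 scale (adjusted p = 0.0147 and 0.0289, and up to 0.0729 and 0.126 over all settings). Prkd3, a protein kinase D, and Mark3 were next, at -0.21 and -0.17, and did not pass the test (adjusted p = 0.0669 and 0.0888).

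Of 22 enzymes and coactivators that act on MEF2, 4 rose and 2 fell, beside 10.2% and 10.7% of all tested genes. Mapk12, the p38 gamma kinase of muscle, had normalized counts of 1194.4, 1093.6 and 1332.6 in the controls and 1959.1, 2078.6 and 2012.1 with SENP7 siRNA (log2 fold change 0.74 ± 0.08 SE, limma adjusted p = 0.000369). Its chromosomal neighbour Mapk11, the p38 beta kinase, had 674.3, 666.4 and 669.2 and then 442.7, 410.8 and 330.6 (-0.77 ± 0.11, adjusted p = 0.00151). The 2 p38 genes thus moved in opposite directions with no overlap between groups, while Mapk14, p38 alpha, named after its value was seen, was at -0.02 and did not pass. The chromatin remodelling subunit Smarcd3 (0.32) and the acetyltransferase Crebbp (0.35) rose, with adjusted p of 0.00538 and 0.0073. The other 2 calls, outside the naming rule, were a rise of the coactivator Ncoa2 (0.39, or 0.25 without control replicate 1, and adjusted p up to 0.114 over all settings) and a fall of the remodelling ATPase Smarca4 (-0.19, up to 0.168).

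Of the 7 SUMO enzymes described for MEF2, 2 fell by small steps, beside 10.7% of all tested genes that fell. They were the ligase Pias2 (-0.21 ± 0.06 SE, limma adjusted p = 0.0327, up to 0.127 over all settings) and the protease Senp2 (-0.19 ± 0.06, 0.042, up to 0.175). The ligases Pias1 (-0.03), Pias3 (0.04) and Pias4 (-0.13) and the protease Senp3 (-0.05) did not pass.

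**Figure D4:**
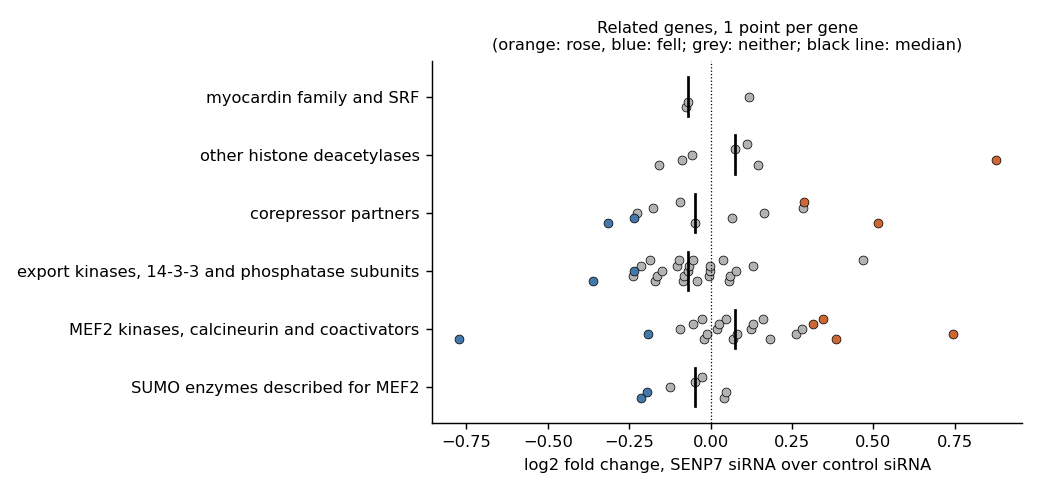
Log2 fold changes of SENP7 siRNA over control siRNA (x axis) for the tested genes of 6 related lists, 1 point per gene, offset vertically so that points can be told apart; black lines are medians. Orange points rose and blue points fell at the adjusted threshold, and among them Hdac11 (0.88), Mapk12 (0.74) and Mapk11 (-0.77) lie farthest from 0.

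The last list held 28 muscle genes with a described MEF2 element in a control region, of which 27 were tested, Meg3 being at 0 in every library. Several were already known to have changed here when the list was drawn up, so its counts are no independent evidence of a direction. With SENP7 siRNA 14 rose, 1 fell and 12 did not pass the test, and the groups did not overlap in 18, beside 10.2%, 10.7% and 39.6% of all tested genes. Their median log2 fold change was 0.32, and 3 of the genes (Ckm, Myog and Des) are also in the myotube marker list. The sum of that list, weighted to its abundant genes, was higher in every SENP7 siRNA library. Of these 3, Ckm (1.00) and Myog (0.28) had positive log2 fold changes and Des a negative 1 (-0.20). The contractile genes Tnnc1 (0.09), Tnni1 (0.09), Tnni2 (0.06), Myl1 (0.30) and Myom1 (-0.08), named after their values were seen, did not pass the test. For Myl1 the groups did not overlap (limma adjusted p = 0.078), and it passed in 4 of the 16 alternative settings. Myh7, another contractile gene of the list, was called and is described below.

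Srpk3, a muscle kinase whose promoter element is printed above, had normalized counts of 1316.3, 1313.9 and 1390.0 in the controls and 2705.2, 2689.5 and 2591.8 with SENP7 siRNA (log2 fold change 0.99 ± 0.06 SE, limma adjusted p = 1.85e-05). Pgam2, the muscle phosphoglycerate mutase, had 3079.2, 3099.6 and 2317.0 and then 5995.2, 6052.9 and 5358.0 (1.05 ± 0.11, 0.000435). Jun, a subunit of AP-1, had 4918.7, 4794.0 and 4632.1 and then 6323.5, 6262.6 and 6523.2 (0.41 ± 0.06, 0.00143). In these 3 genes with the printed element all SENP7 siRNA libraries were above all controls. Xirp2, the fourth, which encodes an actin-binding protein of the Z-disc, had 175.4, 199.1 and 374.5 and then 189.0, 159.4 and 191.4, with overlap and no call (-0.39, adjusted p = 0.302).

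Others that rose were the myogenic factor gene Myf6 (1.84), the glucose transporter gene Slc2a4 (2.34), which had 18.91 to 30.15 normalized counts in the controls and 110.8 to 139.1 with SENP7 siRNA, and the myoglobin gene Mb (0.56). The creatine kinase gene Ckm (1.00) and the gene of the kelch protein Klhl31 (0.49) rose as well. Named after their values were seen, Hrc, Cox6a2, Ppargc1a, Ampd1, Smyd1 and Nr4a1 also rose, with log2 fold changes from 0.32 to 1.55. Myh7, the slow myosin heavy chain gene, was the 1 that fell (-0.88 ± 0.23 SE, limma adjusted p = 0.0272), and it too is named after its values were seen. Its normalized counts were 6343.9, 6891.2 and 12706.5 in the controls and 5037.0, 4627.9 and 3819.5 with SENP7 siRNA, so control replicate 3 stood far above the rest. The count of genes that fell was 0 without control replicate 2 or any 1 SENP7 siRNA library and 2 without control replicate 3. The call of Myh7 was lost in those 4 cases and also with no filter on low counts (adjusted p = 0.231), and without control replicate 3 its log2 fold change was -0.57 with the call kept. That of Nr4a1 was lost without control replicate 1 or 2 or SENP7 replicate 2 or 3 (up to 0.123). The other 13 calls held in all 16 settings.

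**Figure D5:**
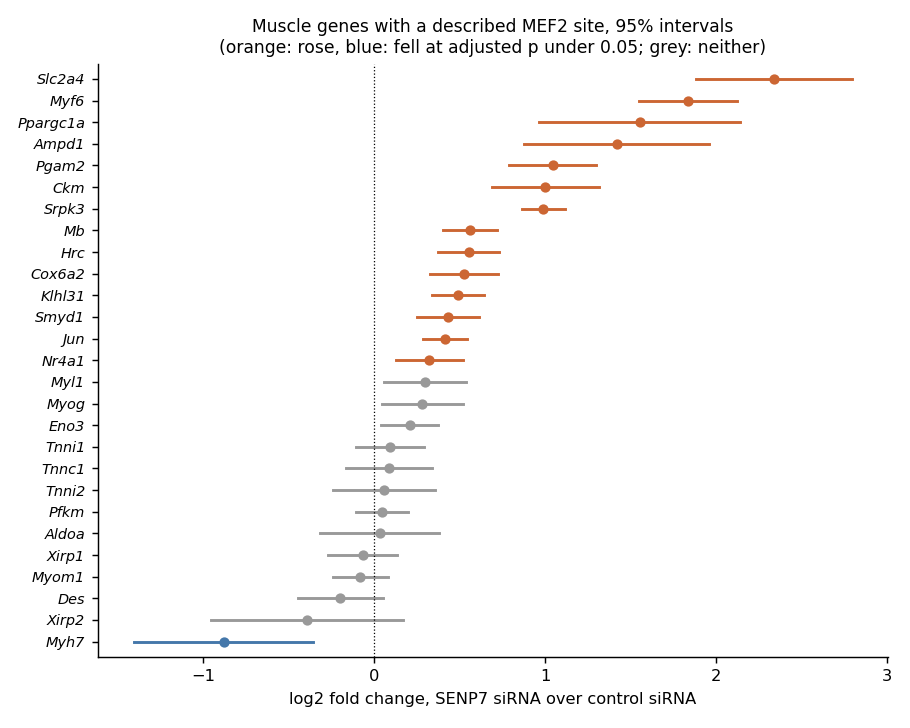
Fitted log2 fold changes of SENP7 siRNA over control siRNA (x axis) with unadjusted 95% intervals for 27 muscle genes with a described MEF2 element, sorted by size. Orange genes rose, Myh7 (blue) fell, and the 12 grey genes did not pass the adjusted threshold; Slc2a4 (2.34) and Myf6 (1.84) lie farthest to the right.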

How the data were processed

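RNA was poly(A)-selected, made into libraries with a directional kit and sequenced in paired reads, per the labels' protocols. Per the submitters' processing notes, the genome build was GRCm38.p6 and the tools were DESeq2, featureCounts (1.6.4), STAR (2.6.1d), Trim Galore (0.6.4) and bcl2fastq. Neither the counting's strand setting nor its annotation release is given in the sources used here. In the authors' table there is 1 signal column per library, the authors' normalized read count. Dividing each column by its smallest step gave whole reads for 100% of values, at a tolerance of 0.1 read. The authors also deposited a log2 fold change with its standard error, a Wald score, and a p-value with its adjusted form, per the file headers.

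limma 3.58.1 (R 4.3.3; trend, robust) was fitted to log2(normalized count + 1), group only, for 14668 genes with at least 10 in at least 3 libraries. Fold changes on this scale understate changes of low genes. Tests were two-sided with Benjamini-Hochberg adjustment, and the procedure was tested on simulated data. p-values measure the spread between cultures of 1 line.

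Alternatives were a replicate block, other pseudocounts (0.5 and 5), no filter or a mean of at least 50, quantile and TMM scaling, edgeR 4.0.16, DESeq2 1.42.0 and limma-voom on recovered reads, and each library left out. The members and all lists (7 related lists, the MEF2-element list and 4 marker lists) were chosen with earlier results of these data known. Named are Senp7, the members, up to 4 genes per related list and 8 of the MEF2-element list by smallest adjusted p, every gene of a list of 7 or fewer (the single-gene result of 1 such gene is not reported here), and the 3 genes most alike Mamstr and Mef2c. Aldoa stood on more than 1 row, and the row with the highest mean was used. Promoters are RefSeq's, and exon overlaps come from GENCODE M21.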

Additional observations from a re-analysis of the deposited data

How the results depend on the processing

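Over 16 alternative settings the 8 genes kept the sign of their log2 fold change, as did all 15 called related genes and all 15 called MEF2-element genes. Of these calls, 6 and 13 held in every setting. When each library was left out in turn, Hdac4 ranged from 0.26 to 0.39, Mef2a from 0.034 to 0.27, Mef2d from 0.13 to 0.25 and Hdac7 from -0.18 to -0.030, and the count of the 8 past the threshold from 2 to 5. Likewise the related genes that rose ranged from 5 to 14 and those that fell from 1 to 17, and the MEF2-element genes that fell from 0 to 2. Without a filter, 5 related genes and 0 MEF2-element genes fell. The cause of these shifts was not tested.

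Replicate numbers are shared by both groups, but same-numbered libraries deviated together only weakly (r = 0.13, 0.062 and 0.251), and they were not treated as pairs. Libraries of different number gave r from -0.22 to 0.141. In both groups replicate 3 was the library least like the others of its group. Whether same-numbered cultures were handled together cannot be told from these values. With the number as a replicate block, 3 of the 8 genes stayed past the threshold, with limma adjusted p of 0.0028 for Hdac4 and 0.0529 for Mef2d. Of the related genes 10 rose and 11 fell, where 7 and 8 did without the block. Of the MEF2-element genes 17 rose and 0 fell (adjusted p = 0.21 for Myh7), where 14 and 1 did without it. Calls over all genes went from 3062 to 4175. Not every library correlated best with its own number. Over all genes, leaving out 1 library gave between 1504 and 4657 calls.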
